A study of Mus musculus with 9 samples.

Results

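Hypertrophic cartilage and the signalling loop that times its formation were examined through 9 genes, which were found by their symbols in a table of 22054 genes: Col10a1, Ihh, Pthlh, Pth1r, Ptch1, Gli1, Hhip, Mef2c and Runx3. RNA had been sequenced from callus, the repair tissue around a healing bone, on day 7 after the left femur was cut and pinned in wild-type male C57BL/6J mice. From the day after surgery the mice received daily intraperitoneal injections of 200 μl for a week. One group received 750 nmol of H-151, an inhibitor of the innate immune adaptor STING. Another received 30 mg/kg of SR-717, a STING activator, and the controls received phosphate-buffered saline (PBS). Each group had 3 libraries, labelled as separate biological samples of 7-week-old mice, and the study asked whether STING activity changes early fracture healing. Nothing states whether a library came from 1 mouse or from a pool, and the labelled RNA protocol mentions cell lines although the labelled tissue is bone.

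A fracture that is not rigidly fixed heals through cartilage that is later replaced by bone, much as a growth plate does. Chondrocytes stop dividing, enlarge and make type X collagen, and at the onset of this step they secrete Indian hedgehog. Indian hedgehog keeps neighbouring cells dividing and raises parathyroid hormone-related protein (PTHrP), which acts back through its receptor to delay further hypertrophy. Cells that receive a hedgehog signal transcribe Ptch1, Gli1 and Hhip, so these transcripts are the usual readout of the pathway.

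Levels are given as CPM, expected counts relative to the library total after TMM scaling over the 9 libraries, and always in the order of replicates 1, 2 and 3. Library totals ran from 16987398 to 23272480 expected counts, and no pair among the 36 possible pairs of libraries was alike within counting noise. The callus carried RNA of many cell types, and fewer cells of a type cannot be told apart from less RNA per cell in such a sample. Levels of marker lists are the log2 of the summed TPM, the authors' length-scaled unit. Osteoblast markers lay between 12.86 and 14.26, skeletal muscle markers between 12.68 and 15.13, and chondrocyte markers between 8.57 and 13.23 over the 9 libraries.

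Replicate 1 of SR-717 and replicate 1 of PBS stood apart from the other 7 libraries. On the first principal component of all genes, which held 46.6% of the variance, they lay at 100.6 and 38.8, and the other 7 lay between -28.8 and -4.03. The chondrocyte marker list was at 8.57 in SR-717 replicate 1 and at 10.36 in PBS replicate 1, against 11.65 to 13.23 in the other libraries. In the same SR-717 library the neutrophil marker list was at 15.11, against 10.58 to 13.61 elsewhere, and the T and NK cell list at 6.53, against at most 5.44. No chondrocyte marker was at 0 in that library, and Col2a1, the main collagen of immature cartilage, was at 50.1 CPM there. Most of the members' fold changes, the ratios and some of the marker counts that rest on these libraries are therefore also given without them.

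The members lay on 7 chromosomes of GRCm38 (mm10), the build named in the labels. Col10a1 was at chr10:34389981-34397085 on the plus strand, Ihh at chr1:74945315-74951672 on the minus strand and Pthlh at chr6:147252101-147264183 on the minus strand. Pth1r was at chr9:110722085-110747145, Ptch1 at chr13:63508328-63573598, Gli1 at chr10:127329882-127341974 and Hhip at chr8:79965851-80058006, all on the minus strand. Mef2c was at chr13:83504034-83667080 and Runx3 at chr4:135120652-135177990, both on the plus strand. Counts were of whole genes, so no exon, intron or untranslated region was read on its own. Col10a1 lies within Nt5dc1, Pth1r overlaps Myl3 and Gli1 overlaps Arhgap9, in each case on the opposite strand. The libraries marked strand, but the sources used here do not state whether the counting used it, so counts of these 3 pairs may share reads.

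The promoters of Col10a1 and Runx3 are printed because these genes were the ends of the range described below: Col10a1 had the widest spread over the libraries and Runx3 the narrowest. Both are the 250 bases before the RefSeq start on GRCm38.p6, read 5′ to 3′ on the plus strand, at chr10:34389731-34389980 and chr4:135120395-135120644. Capitals mark TATAAA in Col10a1, and in Runx3 the RUNX motif TGTGGTT, which reads AACCACA on this strand.

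Col10a1: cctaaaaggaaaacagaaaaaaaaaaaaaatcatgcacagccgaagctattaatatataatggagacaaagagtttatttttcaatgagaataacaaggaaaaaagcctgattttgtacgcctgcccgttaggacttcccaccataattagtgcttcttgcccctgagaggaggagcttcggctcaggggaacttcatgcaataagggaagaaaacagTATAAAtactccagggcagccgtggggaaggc

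Runx3: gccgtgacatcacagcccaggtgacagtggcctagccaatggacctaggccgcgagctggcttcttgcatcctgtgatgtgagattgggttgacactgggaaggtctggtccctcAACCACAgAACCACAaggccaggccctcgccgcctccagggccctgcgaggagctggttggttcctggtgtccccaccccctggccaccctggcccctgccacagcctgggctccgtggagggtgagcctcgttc

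The Col10a1 stretch had TATAAA at -32 to -27 from the start, a match found in the last 50 bases of 2.63% of 32851 RefSeq windows and in no other member with a window. Its GC content was 41.6%, below the median window (52.4%). The Runx3 stretch was at 65.2% GC and held 2 RUNX motifs, at -135 to -129 and -127 to -121. A RUNX motif on either strand was found in 5.27% of the windows, which span 250 bases before and 50 after a start, and among the members only in Runx3. The GLI motif GACCACCCA, searched because Ptch1, Gli1 and Hhip are hedgehog targets, was in 0.253% of the windows and in none of the 8 members that had one. Its shorter form CCACCCA was in 9.30% of the windows and, of the members, in Mef2c.

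Col10a1 encodes type X collagen, the defining matrix protein of hypertrophic chondrocytes. It was at 1620, 1303 and 1008 CPM with H-151, at 170, 2362 and 2253 CPM with PBS, and at 8.94, 1684 and 406 CPM with SR-717. The group means were 1310 ± 306 (H-151), 1595 ± 1235 (PBS) and 700 ± 875 CPM (SR-717; SD, n = 3 each). The SD of the SR-717 group exceeded its mean, and the 3 groups overlapped. Both libraries labelled replicate 1 of PBS and SR-717 were below every H-151 library.

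Ihh, the ligand, followed the same order of libraries closely. Its level was 28.4, 33.3 and 16.5 CPM with H-151, 3.88, 57.6 and 34.4 CPM with PBS, and 0.362, 27.7 and 11.0 CPM with SR-717. The lowest value rested on 7 counts, and its 95% Poisson interval, which covers counting error only, was 0.145 to 0.745 CPM. That interval did not reach the next lowest library, PBS replicate 1 at 3.88 CPM.

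Pthlh, which encodes PTHrP, had few counts, 24 to 77 per library. It was at 1.77, 2.71 and 3.72 CPM with H-151, at 2.46, 3.25 and 1.57 CPM with PBS, and at 1.24, 1.41 and 3.27 CPM with SR-717. The groups overlapped throughout, and PBS replicate 1, low in Col10a1 and Ihh, was in the middle of the Pthlh range. Pth1r, the receptor that PTHrP and parathyroid hormone share, is made by chondrocytes and by osteoblasts. Its level was 400, 369 and 458 CPM with H-151, 218, 528 and 605 CPM with PBS, and 109, 395 and 392.2 CPM with SR-717. Apart from the low library of each group, PBS was above SR-717 in Pth1r.

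Ptch1 encodes the hedgehog receptor, which holds the pathway off until ligand binds. It was at 101, 84.1 and 108 CPM with H-151, at 37.1, 106 and 177 CPM with PBS, and at 26.7, 111 and 85.1 CPM with SR-717. Gli1 encodes a transcription factor that amplifies the response, and its level was 29.8, 23.4 and 31.4 CPM with H-151, 10.7, 36.6 and 37.2 CPM with PBS, and 3.98, 24.3 and 28.4 CPM with SR-717. Hhip encodes a membrane protein that sequesters hedgehog ligands. It was at 14.8, 9.66 and 22.3 CPM with H-151, at 2.97, 15.8 and 32.1 CPM with PBS, and at 0.568, 17.2 and 15.1 CPM with SR-717. The lowest Hhip value came from 11 counts (95% Poisson interval 0.284 to 1.02 CPM). All 3 target genes had their lowest level in SR-717 replicate 1 and their next lowest in PBS replicate 1.

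Mef2c and Runx3 encode transcription factors that promote chondrocyte hypertrophy and are also made outside cartilage, Mef2c in muscle, endothelium and some leukocytes and Runx3 in lymphocytes. Mef2c was at 122, 96.4 and 187 CPM with H-151, at 124, 108 and 170 CPM with PBS, and at 98.2, 165 and 125 CPM with SR-717. Runx3 was at 27.5, 26.4 and 25.2 CPM with H-151, at 28.0, 31.0 and 34.7 CPM with PBS, and at 31.0, 28.9 and 28.0 CPM with SR-717. For Runx3 the H-151 group lay below both other groups in CPM without overlap. Its mean of 26.3 ± 1.14 CPM (SD, n = 3) was close to 31.2 ± 3.36 with PBS and 29.3 ± 1.52 with SR-717. In TPM the H-151 group (10.89 to 14.99) overlapped both PBS (14.61 to 16.43) and SR-717 (13.53 to 13.98).

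**Figure D1:**
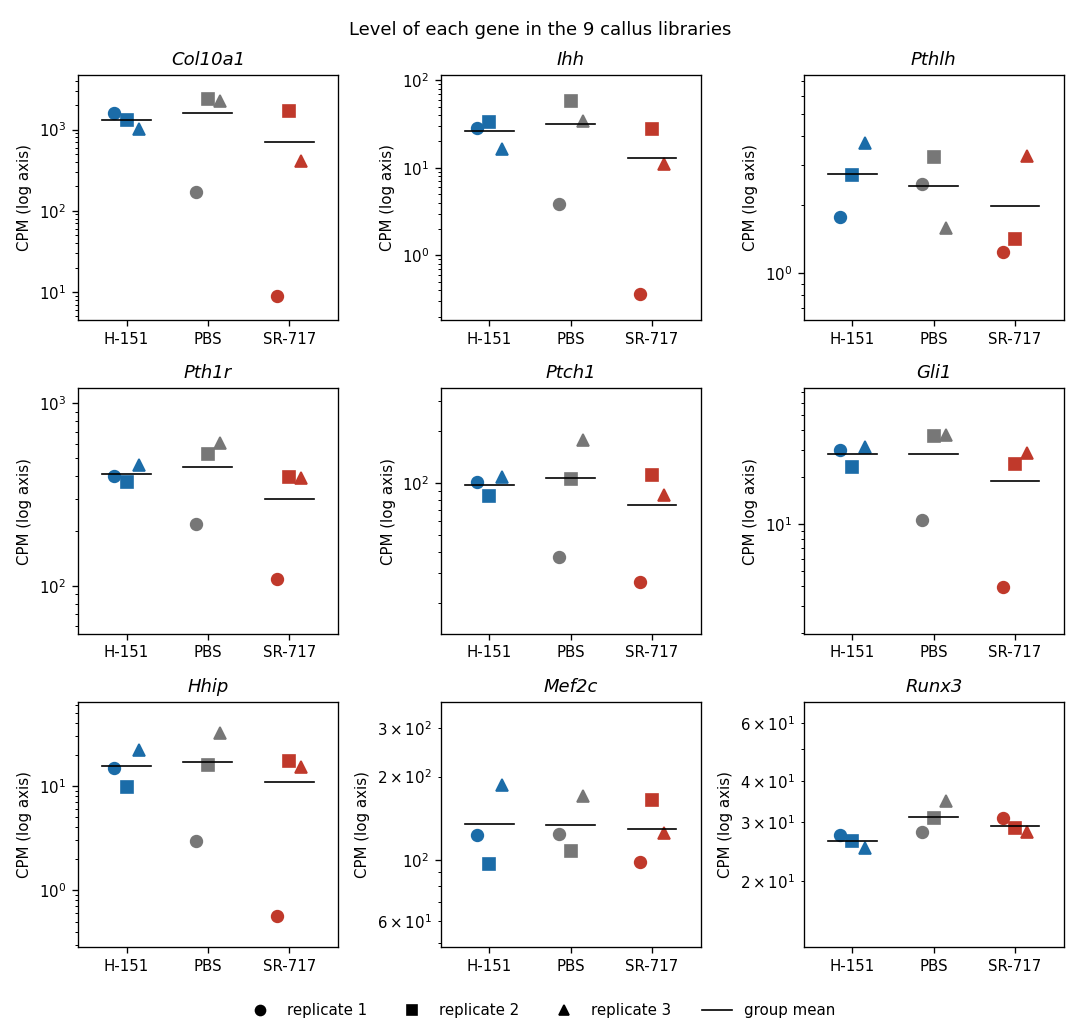
Each panel plots the CPM of 1 gene on a log axis against treatment group, with a point per library shaped by replicate number and a line at the group mean. In Col10a1, Ihh, Pth1r, Ptch1, Gli1 and Hhip the circles of PBS and SR-717 (replicate 1) lie below all other points, while Runx3 stays between 25.2 and 34.7 CPM.

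The members differed widely in how far they dropped in the 2 libraries that stood apart. In SR-717 replicate 1, Col10a1 was 181 times below the median of the other 7 libraries, Col2a1 111 times and Ihh 78.4 times. Among 14294 genes ranked by this difference, Col10a1 was number 2 from the lowest, Col2a1 number 5 and Ihh number 7. The hedgehog targets dropped less, Hhip by a factor of 27.8, Gli1 by 7.498 and Ptch1 by 3.96. Pth1r was lower by a factor of 3.67 and Pthlh by 2.19. Mef2c differed by a factor of 1.28, and Runx3 was slightly above the median. For scale, 1.61% of the genes were at least 4-fold below the median in that library.

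PBS replicate 1 showed a similar order with smaller steps. Col10a1 was lower there by a factor of 9.52, Ihh by 7.30 and Hhip by 5.33. The factors for Ptch1, Gli1 and Pth1r were 2.85, 2.79 and 1.84. Pthlh (1.10), Mef2c (1.01) and Runx3 (1.00) were at the median of the 7 libraries, and 1.03% of all genes were at least 4-fold below it. Over those 7 libraries the highest Col10a1 level was 5.81 times the lowest, and Ihh (5.22), Hhip (3.32) and Pthlh (2.65) came next. The same ratio was 2.11 for Ptch1, 1.94 for Mef2c, 1.64 for Pth1r, 1.59 for Gli1 and 1.38 for Runx3.

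**Figure D2:**
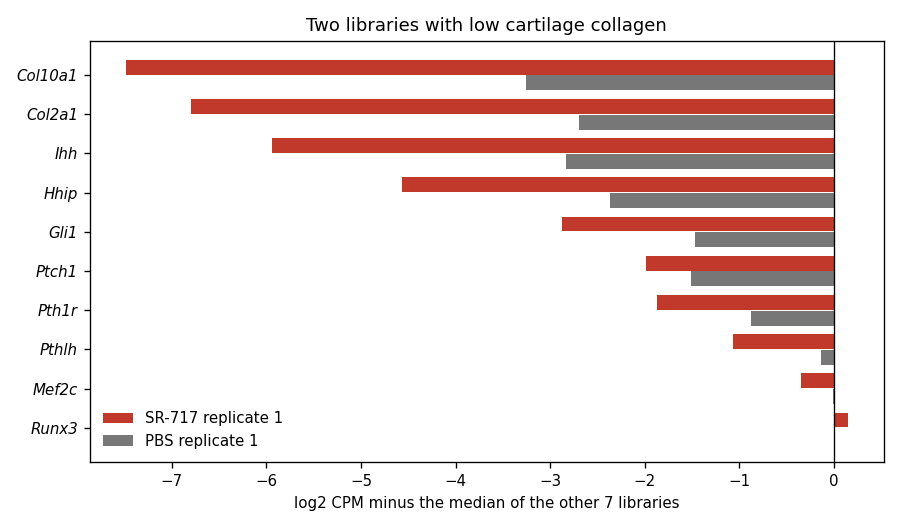
Bars give log2 CPM in SR-717 replicate 1 and in PBS replicate 1 minus the median log2 CPM of the other 7 libraries, for Col2a1 and the 9 genes. Bars of Col10a1 (-7.49 and -3.25), Ihh and Hhip are longer in both libraries than those of Gli1, Ptch1 and Pth1r, and those of Mef2c (-0.35 and -0.011) and Runx3 (0.14 and 0.00) are the shortest.

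Levels of different genes were compared in TPM, which is scaled for gene length. By the median over the 9 libraries the order was Col10a1 (789.5 TPM), Pth1r (324.9), Mef2c (47.1), Ptch1 (25.1), Ihh (19.8), Runx3 (13.98), Gli1 (12.8), Hhip (3.34) and Pthlh (2.92). Pth1r was above Mef2c, Mef2c above Ptch1 and Gli1 above Hhip in 9 of 9 libraries. Other neighbours in this order changed places between libraries: Col10a1 was above Pth1r in 6 of 9, Ptch1 above Ihh in 7, Ihh above Runx3 in 6, Runx3 above Gli1 in 6 and Hhip above Pthlh in 3. Transcripts of the receptor Pth1r thus outnumbered those of its ligand Pthlh in each of the 9 libraries.

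SR-717 was compared with H-151 to ask what turning STING up rather than down does to these genes. Differences were tested with edgeR's quasi-likelihood test over all genes, and a gene was counted as past the thresholds at an unadjusted p under 0.05 and at least a 1.5-fold difference. None of the 9 members was past the thresholds, against 0.756% of the 14151 genes tested. No gene of the whole table passed a Benjamini-Hochberg adjusted p of 0.05 in edgeR, 146 genes had an unadjusted p under 0.05, and DESeq2 called 1 gene by its adjusted p. Log2 fold changes, SR-717 over H-151, were -0.91 (SE 1.35) for Col10a1, -1.005 (SE 1.11) for Ihh, -0.48 (SE 0.482) for Pthlh and -0.46 (SE 0.469) for Pth1r. For the hedgehog targets they were -0.41 (SE 0.481) for Ptch1, -0.58 (SE 0.642) for Gli1 and -0.51 (SE 0.981) for Hhip. Mef2c was at -0.069 (SE 0.300). For Runx3, whose groups did not overlap in CPM, as for 5.18% of all genes, the value was 0.14 (SE 0.122, adjusted p = 0.996, edgeR).

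These differences depended on the SR-717 libraries. Without replicate 1 Col10a1 was at -0.33, Ihh at -0.43, Pth1r at -0.063, Ptch1 at -0.006 and Gli1 at -0.10 on the log2 scale. Hhip (0.049) and Mef2c (0.097) took the opposite sign, and Pthlh (-0.24) and Runx3 (0.10) kept theirs. Without replicate 2 the differences of Col10a1 (-2.67) and Ihh (-2.21) were larger, and without replicate 3 that of Pthlh was (-1.05). None of the 9 members was past the thresholds in any of these 3 fits.

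SR-717 was next compared with PBS, the effect of the activator on its own. None of the members was past the thresholds in the fit that ignores replicate numbers, against 0.519% of 14070 genes. The adjusted p was 0.05 or more for every gene tested in edgeR and in DESeq2, with 97 genes at an unadjusted p under 0.05 in edgeR. The log2 fold change was -1.19 (SE 1.58) for Col10a1 and -1.29 (SE 1.36) for Ihh. Pth1r was at -0.59 (SE 0.581), Gli1 at -0.57 (SE 0.769), Ptch1 at -0.52 (SE 0.686), Hhip at -0.63 (SE 1.19) and Pthlh at -0.31 (SE 0.494). Mef2c was at -0.049 (SE 0.263) and Runx3 at -0.092 (SE 0.154).

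The call changed when the replicate number entered the fit as a block. In these 2 groups libraries with the same number deviated from their group means together to unequal degrees (r = 0.65, 0.34 and 0.14). The first r is that of the 2 low libraries. The labels state no pairing, so it was inferred from these same data and remains an assumption. The block compares each SR-717 library with the PBS library of its number. With it, 4 of the 9 members were lower with SR-717 and past the thresholds, against 0.718% of all genes in that direction. The count over all genes rose from 73 to 443, which is 3.15% of those tested, with 342 higher (2.43%) and 101 lower, and no adjusted p was under 0.05.

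These 4 members were the hypertrophy collagen, the ligand, the PTHrP receptor and a hedgehog target. Blocked by replicate number, Ihh was lower by a log2 fold change of -1.79 (SE 0.439) and Col10a1 by -2.39 (SE 0.802), with an adjusted p of 0.999 for both (edgeR). Pth1r was lower by -0.68 (SE 0.186) and Gli1 by -0.78 (SE 0.256), also with an adjusted p of 0.999 in edgeR. Each of the 4 was lower in 3 of 3 same-numbered pairs, as were 12.4% of all genes. Since the blocked fit had selected these 4, this largely follows from the selection and is no further evidence. Within the pairs, SR-717 minus PBS on the log2 scale was -4.24, -0.49 and -2.47 for Col10a1 and -3.10, -1.05 and -1.63 for Ihh. It was -0.99, -0.42 and -0.63 for Pth1r and -1.40, -0.59 and -0.39 for Gli1. Ptch1 (0.066) and Hhip (0.12) were slightly higher with SR-717 in the pair numbered 2, and neither was past the thresholds (adjusted p = 0.999 for both in the blocked edgeR fit).

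How much of this rested on the pair numbered 1, with both low libraries, was examined by leaving out each pair in turn. Without that pair only Ihh was lower and past the thresholds in the blocked fit (log2 fold change -1.32, adjusted p = 1, edgeR), against 0.254% of the 14166 genes tested. Without the pair numbered 2 there were 5 members, Col10a1, Ihh, Pth1r, Ptch1 and Hhip, against 1.13% of all genes. Without the pair numbered 3 there were 4, Ihh, Pthlh, Pth1r and Gli1, against 1.29% of all genes. Ihh was thus among them each time (-2.33 and -1.77, adjusted p = 0.95 and 0.488, edgeR). Col10a1 and Gli1 were each past the thresholds in 1 of these 3 fits and Pth1r in 2. The 3 fits share pairs with one another and rest on few libraries, so their results are not independent. In the fit without a block and without both low libraries none of the members was past the thresholds. There Ihh was at -1.22, Col10a1 at -1.12, Hhip at -0.55, Ptch1 at -0.51, Pth1r at -0.51, Gli1 at -0.47, Runx3 at -0.19, Pthlh at -0.047 and Mef2c at 0.083.

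Other genes of cartilage were lower as well. In the same blocked fit 10 of 19 chondrocyte markers were lower and past the thresholds, against 0.718% of all genes, and none was higher. Among the 10 were Sox9 (-0.95), Acan (-0.87), Col9a1 (-1.46) and Matn1 (-2.36). Col2a1 was at -1.93 (SE 0.758, adjusted p = 0.999, edgeR) and not past the thresholds. The same blocked fit had 9 of 10 neutrophil markers higher and past the thresholds, S100a8 by 1.64 and S100a9 by 1.60, against 2.43% of all genes. These calls depended on the block. Without it 0 of 19 chondrocyte markers and 0 of 10 neutrophil markers were past the thresholds for SR-717 against PBS. Neutrophil markers were also higher with H-151 than in the same PBS libraries. The blocked fit of H-151 against PBS had 6 of 10 neutrophil markers higher and past the thresholds, against 1.43% of all genes. Their median log2 fold change there was 0.70, against 1.47 for SR-717 against PBS. Without the block 0 of 10 were past the thresholds for H-151 against PBS. For SR-717 against H-151 without a block the median was 1.03, with 0 of 10 below 0 and 0 past the thresholds. For SR-717 against PBS without the pair numbered 1 the blocked counts were 10 of 20 chondrocyte markers lower and 3 of 10 neutrophil markers higher. Over all 14166 genes tested there, 36 were lower and 99 higher. The summed neutrophil level lay between 10.58 and 13.27 with PBS and between 12.71 and 15.11 with SR-717, with no marker at 0, while the chondrocyte level lay between 10.36 and 13.23 and between 8.57 and 12.28. The part of these cell types in the members' differences was not tested.

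H-151 was compared with PBS for the effect of the inhibitor on its own, and since this comparison shares the PBS libraries with the previous one the values of both are not independent. None of the 9 members was past the thresholds, against 0.426% of 14085 genes, and 0 genes passed by adjusted p in edgeR or in DESeq2, with 91 at an unadjusted p under 0.05 in edgeR. Log2 fold changes were small beside their errors: -0.28 (SE 0.809) for Col10a1, -0.30 (SE 0.794) for Ihh, 0.16 (SE 0.396) for Pthlh and -0.14 (SE 0.363) for Pth1r. Ptch1 was at -0.12 (SE 0.494), Gli1 at 0.001 (SE 0.441), Hhip at -0.12 (SE 0.741) and Mef2c at 0.013 (SE 0.285). Runx3 was lower in H-151 without overlap in CPM, as 3.87% of all genes were in either direction, at -0.25 (SE 0.137, adjusted p = 1, edgeR). Blocking on the number moved the count over all genes from 60 to 262 (1.86%), and none of the members was past the thresholds.

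The sizes of these differences depended on which PBS library was left out. Without replicate 1 Col10a1 was past the thresholds, lower with H-151 by -0.81 on the log2 scale (adjusted p = 1, edgeR), and the only member to be so, against 0.281% of the 14229 genes in that direction. Ihh was then at -0.81, Hhip at -0.61, Ptch1 at -0.52, Pth1r at -0.46, Gli1 at -0.38 and Runx3 at -0.31. Pthlh was at 0.17 and Mef2c at -0.027 in that fit. Other values moved as far in the other direction: Ihh was at 0.47 without PBS replicate 2, and Hhip at 0.72 and Ptch1 at 0.45 without PBS replicate 3, none of them past the thresholds.

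**Figure D3:**
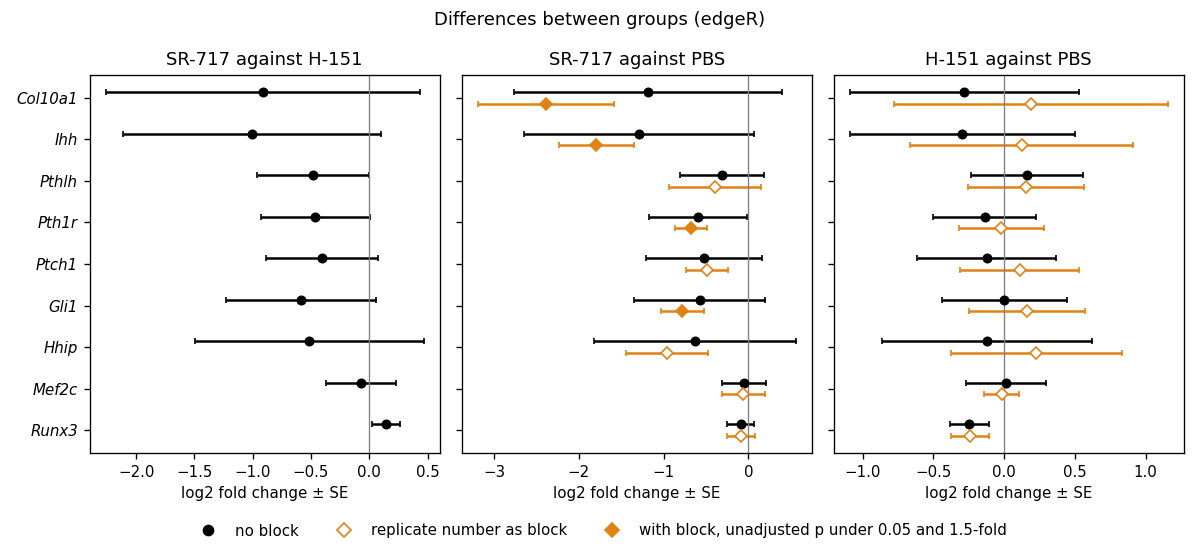
Log2 fold changes with their SE from edgeR are plotted for each gene in the 3 comparisons, as black circles without a block and, for the comparisons with PBS, as orange diamonds with the replicate number as a block. Filled diamonds mark Col10a1, Ihh, Pth1r and Gli1 in SR-717 against PBS, the values past the thresholds.

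Ratios within a library were used to ask whether hypertrophic cartilage changed relative to cartilage as a whole. The log2 TPM ratio of Col10a1 to Col2a1 was -1.505, -1.68 and -1.03 with H-151, -1.70, -1.52 and -0.59 with PBS, and -1.84, -1.09 and -2.02 with SR-717. Although the highest Col10a1 level was 264 times the lowest, the ratio in both low libraries lay inside the range of the other 7, -2.02 to -0.59. The SR-717 group differed from H-151 by -0.25 (exact permutation test, p = 0.5) and from PBS by -0.38 (exact p = 0.5), and H-151 from PBS by -0.13 (exact p = 0.9). Without the low libraries these differences were -0.15, -0.50 and -0.35.

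Ihh relative to Col2a1 varied little, with log2 ratios between -7.00 and -6.07 in the 9 libraries. The highest was that of SR-717 replicate 1, where Ihh rested on 7 counts, and the next was -6.28 in PBS replicate 3. Group means were -6.75 ± 0.217 with H-151, -6.54 ± 0.261 with PBS and -6.54 ± 0.420 with SR-717 (SD, n = 3 each). Differences between groups lay between -0.21 and 0.21 (exact permutation test, p from 0.4 to 1). Without the low libraries SR-717 differed from H-151 by -0.03 and from PBS by -0.37, and H-151 from PBS by -0.34. In same-numbered pairs H-151 was below PBS in 3 of 3, by -0.20, -0.085 and -0.34, and no paired test was made.

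The ratio of Pthlh to Ihh behaved differently. It was -3.35, -2.99 and -1.40 with H-151, -0.039, -3.52 and -3.82 with PBS, and 2.35, -3.56 and -1.13 with SR-717. The highest values were those of the low libraries, and SR-717 replicate 1 was the only one of 9 with more Pthlh than Ihh per length. SR-717 exceeded H-151 by 1.80 (exact permutation test, p = 0.5) and PBS by 1.68 (exact p = 0.6). These 2 differences were 0.24 and 0.12 without SR-717 replicate 1, 3.19 and 3.07 without SR-717 replicate 2, and the second was 1.33 without both low libraries. H-151 differed from PBS by -0.12 (exact p = 1), and by 1.09 without PBS replicate 1. After adjustment over the 9 tests of ratios the smallest p was 0.9, and with 3 libraries against 3 no such two-sided test can go below 0.1.

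**Figure D4:**
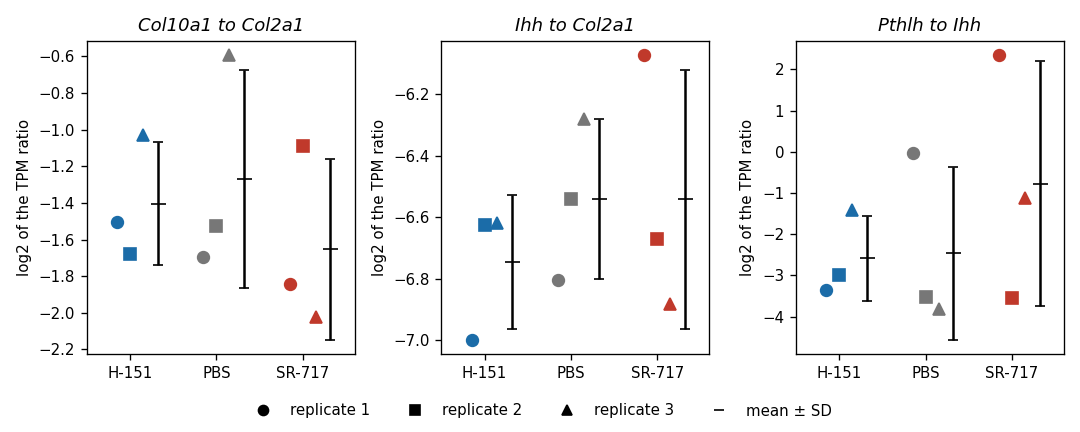
Points show the log2 TPM ratio of the named pair of genes in each library, shaped by replicate number, with the group mean and SD beside them. The SR-717 circle (replicate 1) lies inside the range of the others for Col10a1 to Col2a1 and at the top, 2.35, for Pthlh to Ihh.

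Of 8 other genes for hedgehog ligands and their release, 7 could be tested and none was past the thresholds in any comparison. The highest by mean TPM were Ext1, which builds the heparan sulfate that hedgehog ligands travel on, Disp1, which releases them, and Scube1 of the secreted SCUBE family. Scube1 was at 24.8, 24.0 and 15.9 CPM with H-151, at 7.59, 31.7 and 23.7 with PBS, and at 2.17, 22.4 and 14.02 with SR-717. Its lowest libraries were those low in Ihh, whereas Ext1 was highest in both, at 99.3 and 81.2 CPM. The median log2 fold change of the 7 genes was -0.18 for SR-717 against PBS, beside 0.014 over all genes tested. With the block 2 of them, Scube1 (-0.98) and Scube3 (-0.79), were lower and past the thresholds, and neither was so without the pair numbered 1. In the blocked fit of all pairs 0.718% of all genes were lower and past the thresholds. Scube3 is named here after its values were seen.

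Reception and transduction of the signal were covered by 20 further genes. The most abundant were the kinase genes Csnk1a1, Grk2 and Prkaca, with log2 fold changes for SR-717 against PBS of 0.00, 0.44 and 0.22, none past the thresholds. Kif3a, a motor subunit needed for the primary cilium where the signal is read, was the only one past the thresholds. It was at 8.62, 5.45 and 5.90 CPM with PBS and at 4.29, 3.85 and 3.39 CPM with SR-717, a log2 fold change of -0.79 (SE 0.276, adjusted p = 1, edgeR). H-151 was in between at 4.61, 4.14 and 5.56 CPM, and the list's median was -0.043. Of all genes tested for SR-717 against PBS without a block, 0.249% were lower and past the thresholds.

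Among 16 genes downstream of PTHrP, 13 or 14 could be tested. Gnas, which encodes the G protein subunit that couples Pth1r to cyclic AMP, stood at 788 to 1233 CPM over the libraries with a log2 fold change of 0.00 for SR-717 against PBS. Arrb2 (0.73) and Ramp2 (-0.18), for an arrestin and a receptor partner, were also not past the thresholds. Nkx3-2, a repressor of hypertrophy, was lower with SR-717 than with H-151 at -1.42 (SE 0.467, adjusted p = 0.996, edgeR). Its levels were 0.883, 0.937 and 0.556 CPM with H-151 and 0.155, 0.329 and 0.409 CPM with SR-717, near the lowest level tested. Here Nkx3-2 passed the filter on low counts only through its H-151 libraries, so the direction of its difference is no evidence. For SR-717 against PBS it did not pass that filter. Creb1, a cyclic AMP response factor, was lower with H-151 than with PBS at -0.85 (SE 0.340, adjusted p = 1, edgeR), and its PBS values were uneven at 41.5, 23.4 and 62.9 CPM. None of this list was past the thresholds for SR-717 against PBS, with or without the block.

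The 20 other genes of hypertrophic chondrocytes, many of which osteoblasts also express, had no member past the thresholds in any comparison without a block. Their median log2 fold change was -0.34 for SR-717 against PBS, with 16 of 20 below 0, beside 0.014 for all genes tested. Spp1, Ibsp and Alpl, for matrix proteins and the phosphatase of mineralizing tissue, led by mean TPM at -0.19, -0.37 and -0.35. Their summed level with the rest of the list, on the log2 TPM scale, was 12.33 in SR-717 replicate 1 and 12.93 in PBS replicate 1. The other libraries lay between 12.50 and 13.75, so this sum varied far less than Col10a1. The block gave 2 genes lower with SR-717, the channel gene Panx3 (-0.85) and Fgfr3 (-0.60), a receptor that restrains chondrocyte division. This compares with 0.718% of all genes, and none of the list was past the thresholds without the pair numbered 1. For H-151 against PBS the block gave 1, Mmp13 (-0.69), a collagenase gene of hypertrophic cartilage, against 0.433% of all genes lower. These 3 genes were named after their values were seen.

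Genes whose pattern was most like that of the members were found by Pearson's r of log2 CPM over the 9 libraries, a description to which SR-717 replicate 1 contributes most. Nearest to Col10a1 were Wnk4 (r = 0.995), Snorc (0.992), Ihh (0.991), Col9a1 (0.990) and Scube1 (0.990). Without both low libraries r was still 0.914 for Ihh and 0.956 for Snorc over the 7 that remained. Nearest to the mean of Gli1, Ptch1 and Hhip were Zim1 (0.991), Pou6f1 (0.991), Itga10 (0.990), Pth1r (0.990) and Gli2 (0.989), and for Pth1r r was 0.903 over the 7 libraries. Ihh and the mean of its 3 target genes had r = 0.928 over 9 libraries, 0.761 over 8 without SR-717 replicate 1, and 0.157 over the 7.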

How the data were processed

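Poly(A) RNA of 9 callus libraries (H-151, PBS and SR-717, 3 each) had been sequenced as strand-marked paired reads. The authors deposited an expected count per gene and library, not normalized, and TPM computed by the authors, which divides by gene length and scales each library to a fixed sum. The labels name mm10 as the genome build, and the aligner, counter and annotation are not given in the sources used here. The table also holds annotation text, which was not used.

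Expected counts, of which 8.91% were not whole, were rounded for edgeR 4.0.16 in R 4.3.3 (filterByExpr, TMM, glmQLFit, glmQLFTest) on the 6 libraries of each comparison, all genes together. The fit was planned for whole counts, and rounding was the only change. For sequencing, the study names the DESeq method and the thresholds used here for p and fold change, and states neither whether p was corrected nor whether libraries were paired. DESeq2 1.42.0 was run as an alternative. SEs come from the F statistics. Ratios used log2(TPM + 0.01) and two-sided exact permutation tests (SciPy 1.17.1). p-values measure the spread between these libraries only. On data simulated for SR-717 against PBS (14070 genes, 200 changed, no block), 73.5% of 2-fold and 97% of 4-fold changes were past the thresholds. An adjusted p under 0.05 was reached by 0 and 123 of 200. Of the genes left unchanged there, 4.5% and 5.05% had an unadjusted p under 0.05, against 0.689% of all genes in the measured libraries (edgeR). Whether these percentages hold for the measured libraries, or for members with wide errors such as Col10a1 (SE 1.58), was not tested.

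Replicate numbers come from the labels, which do not say what they share. Deviations from the group means correlated between same-numbered libraries at r = 0.65, 0.34 and 0.14 for SR-717 and PBS and at 0.30, 0.48 and 0.50 for H-151 and PBS, so these were taken as pairs. The r of 0.65 is that of the 2 libraries low in cartilage genes. Deviations within a group are not independent of each other, and libraries of different numbers were not compared. These r values therefore cannot establish a pairing.

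The 9 genes and the lists of hedgehog, PTHrP, hypertrophic and marker genes were chosen with earlier results of these data known. Other genes are named where they passed the thresholds without a block, led their list by mean TPM (3 each) or were most alike (5 each). Examples of marker genes were chosen after their values were seen. Positions come from GENCODE on GRCm38 and promoters from RefSeq (GRCm38.p6), which gave windows for 8 of the 9 genes.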

Additional observations from a re-analysis of the deposited data

How the results depend on the processing

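Across the alternatives, the 27 member results (9 genes in 3 comparisons) were recomputed 358 times. They kept their direction and their side of the thresholds in 310, were newly past the thresholds in 15 and changed sign in 33. The smallest adjusted p of a member in any fit was 0.488. The cause of these changes was not tested, except that leaving out libraries or filtering changes what is fitted. The TMM normalization against DESeq2's size factors, the DESeq2 test and the filters moved no member past the thresholds.

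Counts of all genes past the thresholds moved more. For SR-717 against H-151 (107 genes) the count was 209 with DESeq2, 223 with no filter on low counts, 61 with a mean count of at least 50, 171 with all 9 libraries in 1 fit, and 64 (without H-151 replicate 2) to 661 (without SR-717 replicate 3) when each replicate was left out, with 384 without SR-717 replicate 2. For SR-717 against PBS (73 genes) it was 138, 194, 37 and 176 in the same order, and 95 (without PBS replicate 3) to 319 (without SR-717 replicate 3) leaving out replicates, with 118 without PBS replicate 1 and 259 without PBS replicate 2. For H-151 against PBS (60 genes) it was 127 with no filter, 28 with the higher minimum, and 43 (without H-151 replicate 2) to 698 (without PBS replicate 2) leaving out replicates, with 99 without H-151 replicate 3, 115 without PBS replicate 1 and 153 without PBS replicate 3. There 0 members were past the thresholds, and 1 (Col10a1) without PBS replicate 1.

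The replicate block gave 443 genes and 4 members for SR-717 against PBS and 262 genes for H-151 against PBS. In the latter Col10a1 (0.19), Ihh (0.12), Ptch1 (0.11), Hhip (0.23) and Mef2c (-0.016) changed sign. For SR-717 against H-151 same-numbered libraries correlated at r = 0.34, 0.062 and 0.079, so the numbers were not taken as pairs. The block gave 143 genes there and 0 members. Fits chosen after seeing the data left out whole pairs for SR-717 against PBS. The blocked fit gave 135 genes and 1 member without pair 1, 683 and 5 without pair 2, and 1131 and 4 without pair 3. Mef2c changed sign without pair 1 (0.11) and pair 3 (0.14), Pthlh without pair 2 (0.043) and Runx3 without pair 3 (0.021). Without a block and without the replicate 1 libraries of SR-717 and PBS, 118 genes were past the thresholds and Mef2c was at 0.083.

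Leaving out each replicate in turn, log2 fold changes that changed sign ranged as follows. For SR-717 against H-151 Hhip ranged from -1.003 to 0.049 and Mef2c from -0.28 to 0.23. For SR-717 against PBS Ptch1 ranged from -0.93 to 0.055, Hhip from -1.13 to 0.22 and Mef2c from -0.26 to 0.16. For H-151 against PBS Col10a1 ranged from -0.81 to 0.14, Ihh from -0.81 to 0.47, Pthlh from -0.12 to 0.45 and Pth1r from -0.46 to 0.14. Ptch1 ranged from -0.52 to 0.45, Gli1 from -0.38 to 0.25, Hhip from -0.61 to 0.72 and Mef2c from -0.29 to 0.22.

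The differences of log2 ratios changed sign as follows on leaving out replicates. Col10a1 to Col2a1 ranged from -0.35 to 0.21 for H-151 against PBS. Ihh to Col2a1 ranged from -0.03 to 0.38 for SR-717 against H-151 and from -0.24 to 0.17 for SR-717 against PBS. The last was 0.13 with a pseudocount of 0.1 TPM and 0.089 from log2 CPM. Pthlh to Ihh ranged from -0.80 to 1.09 for H-151 against PBS. With 3 libraries a group, 1 of which in PBS and in SR-717 had little cartilage RNA, these data limit the precision of each member to the errors given, and Ihh, Hhip and Pthlh are also limited by counts of 7, 11 and 24 in their lowest library.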

Other observations

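Prg4, which encodes lubricin, the lubricant of joint surfaces and superficial cartilage, was highest in the 2 libraries where the chondrocyte marker list was lowest. It was at 38.2 CPM in SR-717 replicate 1 and at 69.2 CPM in PBS replicate 1, and between 7.76 and 23.2 CPM in the other 7 libraries. Sox5, a transcription factor of early chondrocytes, was highest in H-151 at 4.61, 4.88 and 10.3 CPM, against 3.71, 3.04 and 2.92 with PBS and 2.07, 2.44 and 1.81 with SR-717. It was the only one of the 19 tested chondrocyte markers past the thresholds for SR-717 against H-151 without a block, at a log2 fold change of -1.65. The share of all genes in that direction was 0.389%. For H-151 against PBS without a block Sox5 was also past the thresholds, higher with H-151, and the only one of 20 tested. There 0.263% of all genes were higher and past them. Both genes were chosen after their values were seen.

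Mef2c was scaled unevenly between CPM and TPM. In SR-717 replicate 2 it was at 165 CPM, within the 96.4 to 187 CPM of the 9 libraries, but at 129.1 TPM, while H-151 replicate 3 with the highest CPM was at 56.0 TPM. The ratio of TPM to CPM for this gene thus differed between libraries, and the cause was not tested.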
